A study of Mus musculus with 2 samples.

Results

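The 10 genes described here are the immediate-early and AP-1 genes Fos, Fosb, Jun, Junb, Jund, Atf3, Egr1, Nr4a1, Ier2 and Dusp1. They were taken by name as a list, 10 of the 32291 genes in the table, and were followed across the 11 annotated cell types of colitis-associated colon tumors (CACs) in 2 single-cell RNA sequencing libraries. Each captured mRNA molecule carries a unique molecular identifier (UMI) and is counted once however often it was amplified. The level of a gene is the mean over cells of its UMIs per 10000 UMIs of the cell. Because each captured molecule is counted at its 3′ end, gene length does not enter this level. The libraries are labelled Mir34a_F/F and Mir34a_Mye_KO and are called by these labels the F/F library and the Mye_KO library. The mice were C57Bl/6 animals aged 6 to 10 weeks at the start, all with floxed Mir34a. In Mir34a_Mye_KO mice, Cre driven by the lysozyme M promoter deletes Mir34a in myeloid cells, and Mir34a_F/F littermates lack Cre. Both groups received 10 mg/kg AOM, a carcinogen, 5 days ahead of each of the first and second of 3 cycles of DSS (2.5%, and 2% in the last), which injures the colon epithelium, and were sacrificed on day 110 counted from the first AOM injection. Per genotype, 6 to 8 tumors of 3 female mice were pooled into 1 library. With 1 library per genotype no difference between the genotypes could be tested, no p-value was computed, and all intervals are 95% intervals for counting error alone. Values are given for the F/F library first and the Mye_KO library second.

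Immediate-early genes are transcribed within minutes of a growth factor, cytokine or stress signal, without new protein synthesis, and their mRNAs are short-lived. Proteins of the Fos and Jun families pair through leucine zippers to form the transcription factor AP-1, which acts on genes of proliferation, inflammation and tissue repair in the gut epithelium and in immune cells. Dusp1 encodes a phosphatase that switches off the MAP kinases by which these genes are induced. Warm enzymatic dissociation of a tissue is known to induce the same genes, and the tumors were dissociated enzymatically on a heated device.

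Mir34a encodes the microRNA deleted here, so its sequence and the matches to it are shown for the 2 of 10 genes whose annotated 3′ UTR holds one. Among all 21092 genes with an annotated 3′ UTR, 14.9% hold a match. The mature microRNA lies at chr4:150068473-150068494 on the plus strand (GRCm38.p6, RefSeq), and its seed, bases 2 to 8, is in capitals. In the 3′ UTR windows (GRCm38, GENCODE) the capitals mark the match to the seed, CACTGCC. The Fos window lies at chr12:85476487-85476515 on the plus strand, with the match 40 bases after the stop codon. The Fosb window lies at chr7:19302862-19302890 on the minus strand, 1962 bases after the stop codon.
mmu-miR-34a-5p: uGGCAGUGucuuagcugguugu
Fos: tccagacgtgcCACTGCCcgagctggtgc
Fosb: gaagggcctgcCACTGCCgaccacaattc
A match is a description of the sequence and not a shown site of regulation.

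Since these genes are themselves targets of the factors they encode and of CREB and SRF, promoter windows of 250 bases before to 50 after the start were searched on both strands for TGACTCA or TGAGTCA (AP-1 site), TGACGTCA (CRE), GCGTGGGCG (Egr site) and the CArG box. RefSeq windows were found for 8 of the 10 genes, without Ier2 and Egr1. Of 32851 promoter windows, 5.20% held the AP-1 site, 1.79% the CRE, 0.612% the Egr site and 1.63% the CArG box. The only match among the 8 genes was a CRE of Dusp1, at position -143, which is shown with its flanks (chr17:26508598-26508625, minus strand, GRCm38.p6) and the motif in capitals.
Dusp1: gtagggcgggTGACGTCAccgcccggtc

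The table held 20312 and 18571 cells. The Mye_KO library was deeper in 11 of 11 cell types, with a ratio of median UMIs from 1.11 (endothelial cells) to 5.69 (B cells), and the mitochondrial share of UMIs was higher in it in 11 of 11. Cells with a mitochondrial share of 25% or more made up 12.2% and 22.2%, although the study states that such cells were removed. The libraries shared 96 cell barcodes, 43 of them with the same cell type. Of 44 markers, 4 for each cell type, 43 were highest in their own type in both libraries; the exception was Ms4a2, which was highest in mast cells. The Mir34a features did not settle the labels. The mature and hairpin features of Mir34a had 0 UMIs in every cell type of both libraries, so they could not tell the labels apart. The primary transcript had 133 and 462 UMIs in macrophages. Lyz2, the gene that Cre is inserted into and disrupts, was lower in the Mye_KO library, the direction the labels give, at a level of 1.44 and 0.371 (-1.96) in macrophages and 0.245 and 0.0773 (-1.67) in neutrophils. A Cre feature of the table had 0 UMIs in both libraries, and a feature named for both Cre and Lyz2 had 451 and 172 UMIs in macrophages. Each direction below is therefore one between libraries as labelled.

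Fos was highest in fibroblasts and endothelial cells. Its level was 21.2 and 15.6 UMIs per 10000 in fibroblasts and 15.5 and 13.3 in endothelial cells. It was 8.69 and 5.97 in epithelial cells, 7.83 and 6.64 in macrophages, 7.02 and 5.84 in neutrophils, and 5.88 and 3.81 in T cells. Basophils had the lowest level, 4.34 and 3.58. The intervals of fibroblasts and endothelial cells were apart in the F/F library (18.7 to 24.0 and 13.9 to 17.1) and overlapped in the Mye_KO library. Fosb, its closest relative, also led in fibroblasts, with 10.99 and 8.32. The lowest Fosb level was in dendritic cells in the F/F library, 3.40, and in neutrophils in the Mye_KO library, 2.81.

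The Jun family members, which pair with Fos or with each other, had their highest levels in different cell types. Junb, a weaker activator than Jun that can oppose it, was highest in T cells, with 17.01 and 15.9, and its interval there was apart from that of the next cell type in both libraries. Jund, the most evenly expressed Jun gene in many tissues, was highest in basophils (15.1 and 16.7), followed by mast cells (12.4 and 13.8). Jun was highest in epithelial cells of the F/F library, 15.8, with mast cells next at 14.4. In the Mye_KO library it was highest in mast cells, 17.4, while epithelial cells had 13.9. Thus for Jun the first place differed between the libraries.

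Atf3, a stress-induced factor that binds with Jun proteins, was highest in epithelial cells, with 9.62 and 6.68, and lowest in B cells, with 2.98 and 1.47. Egr1, a zinc finger factor induced through SRF, had the widest range of the 10 genes. It stood at 17.7 and 16.1 in fibroblasts and at 1.90 and 1.58 in dendritic cells, a 9.34-fold and a 10.2-fold span. Nr4a1, an orphan nuclear receptor induced by antigen receptor signalling in lymphocytes, was low throughout, and was highest in basophils (4.70) of the F/F library and in mast cells (5.09) of the Mye_KO library. The intervals of these 2 cell types overlapped in both libraries. Ier2, a nuclear protein of the immediate-early class, differed least, from 1.82 in mast cells to 3.48 in epithelial cells of the F/F library and from 1.44 in B cells to 3.14 in epithelial cells of the Mye_KO library. Dusp1 was highest in neutrophils, with 9.93 and 11.9, and lowest in B cells, with 2.54 and 1.96. In the F/F library its interval in neutrophils overlapped that in fibroblasts (9.74).

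**Figure D1:**
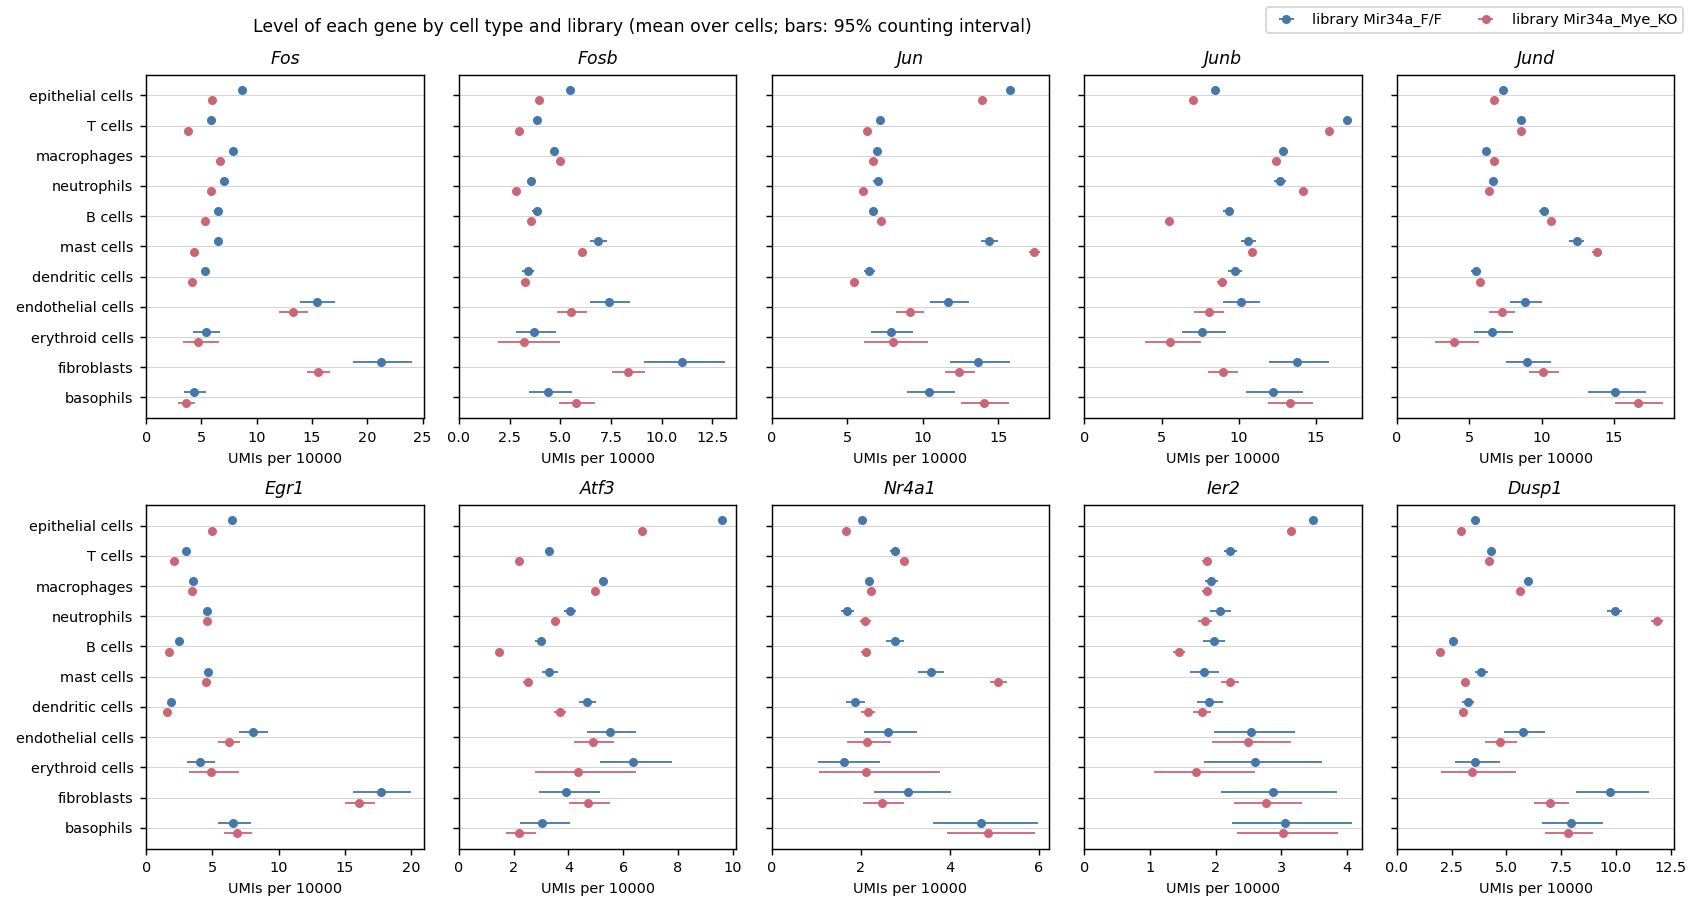
Level of each of the 10 genes (mean over cells of UMIs per 10000, horizontal axis, from 0) in the 11 cell types (vertical axis), with 1 point per library and bars for the 95% counting interval. Fibroblasts lie farthest right for Fos, Fosb and Egr1, T cells for Junb, and neutrophils for Dusp1, where the levels were 9.93 and 11.9.

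The order of cell types was much the same in both libraries for most of the genes. The same cell type was highest for 8 of 10 genes, where 51.0% of all 14272 genes had the same highest type. Spearman's rho of the 11 levels between the libraries, given as a description, ran from 0.573 for Ier2 to 0.973 for Dusp1. The median spread of the genes over cell types was below that of all genes. Their median ratio of the highest to the lowest level was 3.06 and 3.70, compared with 4.80 and 5.83 over 7436 genes. Egr1 was above these medians of all genes in both libraries (9.34 and 10.2). Fos was above in the F/F library (4.90) and Dusp1 in the Mye_KO library (6.07). The genes behind the shared highest type and the median ratios of all genes were not matched for level, and many have fewer UMIs. The part of counting error in these differences from all genes was not tested.

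Epithelial mRNA was counted in all other cell types, and this bears on the low levels above. The 4 epithelial markers Epcam, Krt8, Krt18 and Cdh1 together stood at 56.8 and 39.5 in epithelial cells. In T cells they stood at 20.9 and 11.5, in macrophages at 15.7 and 12.02, and in neutrophils at 23.2 and 13.8. As a share of its own epithelial level, a single marker reached 30.5% to 43.7% and 25.3% to 32.2% in T cells. None of the 4 was at 0 in any cell type. Whether free RNA or epithelial cells in the same droplet gave these counts was not tested. A gene whose level, as a share of its epithelial level, is no higher than that of these markers cannot be told apart from this background.

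By this measure Atf3 was at background in several cell types. In T cells it stood at 34.2% and 32.7% of its epithelial level, within the range of the markers in the F/F library and just above it in the Mye_KO library. In B cells it stood at 31.0% and 22.03%, against a highest marker of 38.5% and 21.6%. It was no higher than the highest marker in at least 1 library in 7 of 10 other cell types, and in macrophages it was above, with 54.5% and 74.6% against a highest marker of 33.2% and 33.7%. Jun, with the highest epithelial level, was within the range in neutrophils of the F/F library (44.5%) and Egr1 in dendritic cells of the Mye_KO library (31.6%).

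Nr4a1 and Dusp1 were above the highest marker in all 10 other cell types of both libraries. Junb was above it everywhere except in erythroid cells of the Mye_KO library, and stood at 202% and 225% of its epithelial level in T cells. Dusp1 in neutrophils reached 280% and 406%. Fos and Fosb were above it outside erythroid cells and, for Fos, basophils. In erythroid cells, whose marker share was the highest (39.4% to 77.1% and 40.8% to 89.1%), 6 and 7 of the 10 genes were within the range. In all, 7 of 100 gene and cell type pairs were within it in both libraries and 18 in at least 1.

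**Figure D2:**
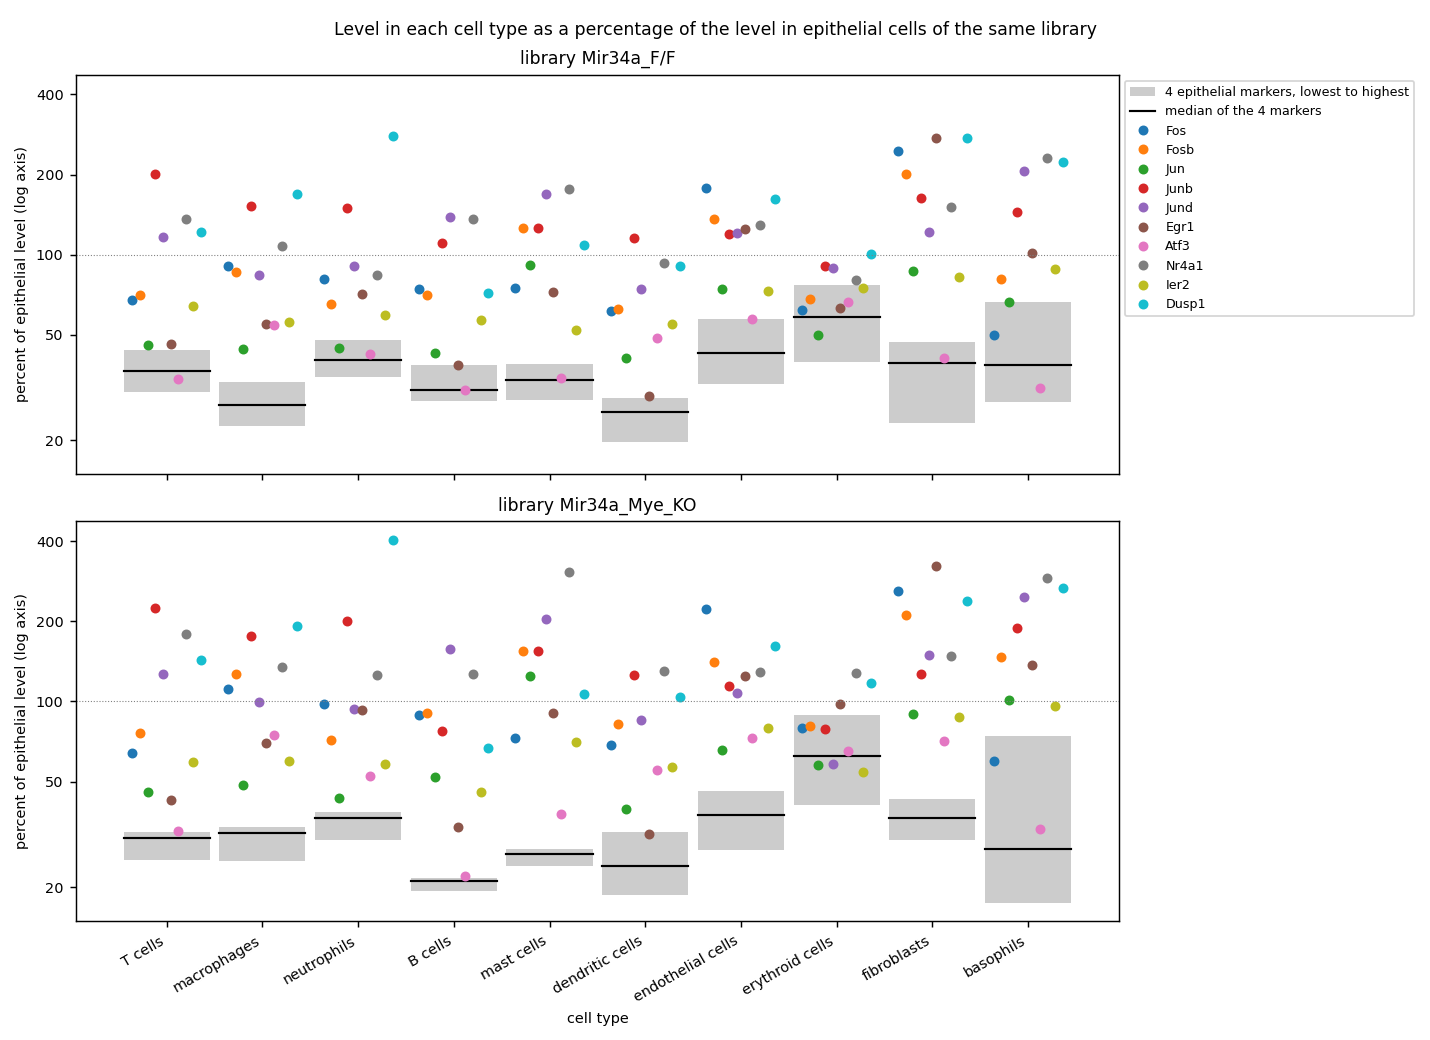
Level of each gene as a percentage of its level in epithelial cells of the same library (log axis) in the 10 other cell types, with the F/F library above and the Mye_KO library below. Grey boxes span the 4 epithelial markers and the line is their median. Dusp1 in neutrophils lies highest, at 280% and 406%, and Atf3 lies inside or close to the boxes in T and B cells.

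The genes also differed in their mix. Junb made up 28.9% and 31.8% of the UMIs of the 10 genes in T cells and 10.7% and 11.3% in epithelial cells. Egr1 made up 15.8% and 18.7% in fibroblasts, Dusp1 14.4% and 18.6% in neutrophils, and Jund 20.7% and 21.4% in basophils. The largest share in epithelial cells was that of Jun, 21.7% and 26.7%.

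The comparison of the libraries asks whether the genes differ in CACs of mice with and without Mir34a in myeloid cells. Ratios are log2 of the level in the Mye_KO library over that in the F/F library, and 0.5 in either direction was taken as the fold to count. Of the 110 pairs of a gene and a cell type, 12 were lower in the Mye_KO library by this fold, compared with 22.7% of the pairs over all genes. Only Nr4a1 in mast cells was higher, compared with 12.6%. Ratios below 0 were found for 82 of 110 pairs, compared with 62.3%. In these values the share of pairs past the fold was below that of all genes, and the share below 0 was above it. The shares of all genes were not matched for level, and many of these genes have fewer UMIs. With a pseudocount of 1 added to both levels, 5 of 110 pairs were lower by the fold, above the 1.49% of all genes. None was higher, compared with 1.22%. With the level in erythroid cells subtracted, 17 of 56 pairs were lower and 22 higher, above the 28.5% and 34.5% of all genes. The relation to all genes past the fold thus depended on the processing. With the epithelial background subtracted, an alternative chosen after the values were seen, 6 of 104 pairs were lower by the fold and 17 higher. Over all genes 19.4% and 20.2% of the pairs were. Below 0 were then 47 of the 104 pairs, compared with 52.0% of the pairs over all genes. Outside epithelial cells 37 of 94 pairs with a value were below 0 and 57 above, without a share of all genes for these cell types alone. The excess of lower values over all genes therefore did not hold with this subtraction, which also lowered the share of all genes below 0.

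**Figure D3:**
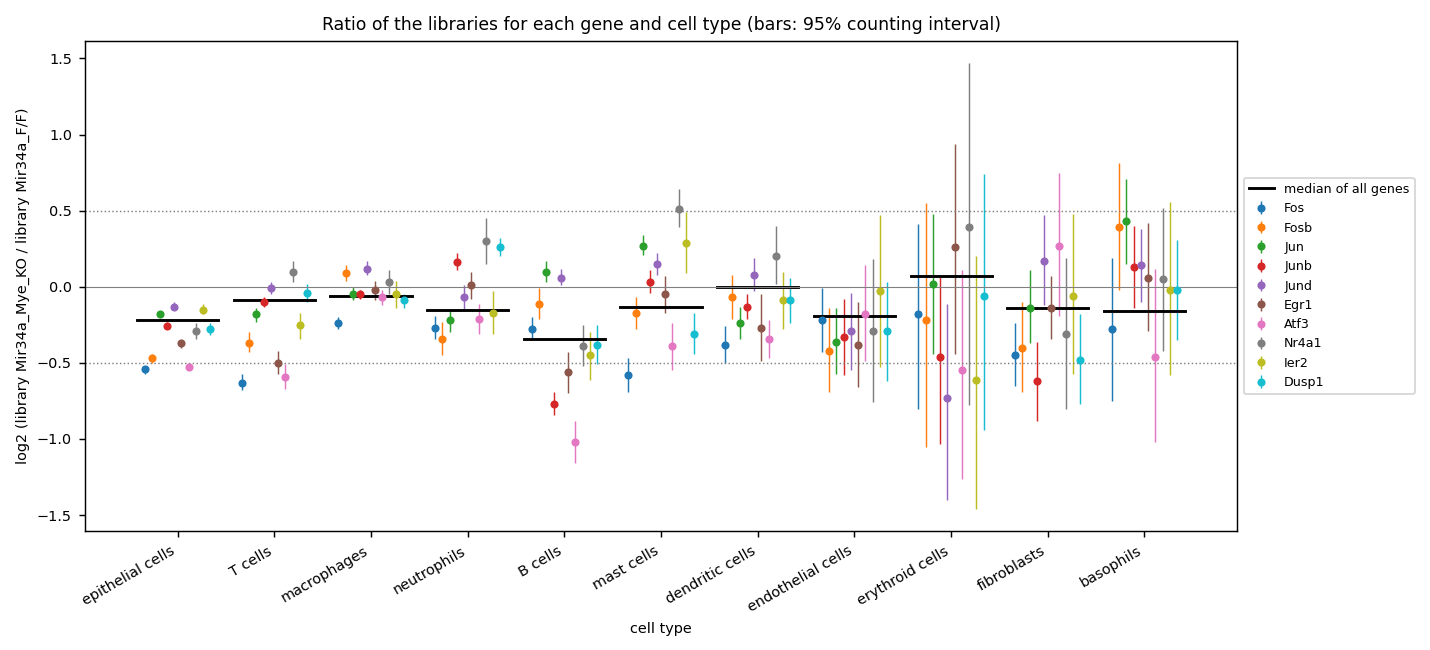
Log2 ratio of the Mye_KO over the F/F library for each gene (colors) in each cell type, with 95% counting intervals. Dotted lines mark 0.5 in either direction and black bars the median of all genes of the cell type, which lies at -0.22 in epithelial cells. In epithelial cells all 10 points lie below 0, and in neutrophils Nr4a1, Dusp1 and Junb lie above.

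Fos was lower in the Mye_KO library in 11 of 11 cell types, from -0.63 in T cells to -0.18 in erythroid cells, and its interval was below 0 in 9 of them. Of 5677 genes with a value in all cell types, 7.56% were lower in 11 of 11. From UMIs summed over cells, in which deep cells weigh most, Fos was lower in 9 of 11. With the epithelial background subtracted it was lower in epithelial cells and in 6 of the 10 other cell types. It then stood at 2.72 and 1.97 in T cells (-0.46) and at 5.48 and 4.73 in macrophages (-0.21), but at 3.55 and 3.66 in neutrophils (0.04). Atf3, Ier2 and Dusp1 were each lower in 10 of 11 cell types, where 19.2% of genes were lower in at least 10. These counts depended on the processing. From summed UMIs they were 9, 5 and 8 of 11, and after thinning 7, 6 and 9. With the epithelial background subtracted, Ier2 was lower in 3 of the 9 other cell types with a value and Dusp1 in 5 of 10. For Atf3, the background was above the level in T cells, B cells and basophils of the F/F library, so no ratio remained there. In the other cell types with a value Atf3 was then lower in 2 and higher in 5 of 7, with 2.63 and 2.84 (0.11) in macrophages and -0.09 in dendritic cells. In neutrophils, mast cells and fibroblasts less than 0.3 was left in the F/F library, from which no direction can be read.

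In epithelial cells, which include the tumor cells, 10 of 10 genes were lower in the Mye_KO library, compared with 87.7% of all genes. Fos had levels of 8.69 (8.59 to 8.78) and 5.97 (5.89 to 6.05), a ratio of -0.54 (-0.57 to -0.52). Atf3 had 9.62 and 6.68 (-0.53), Fosb 5.46 and 3.94 (-0.47) and Egr1 6.46 and 4.99 (-0.37). Jund was nearest to 0, with 7.36 and 6.74 (-0.13). The 2 genes past the fold, Fos and Atf3, compare with 8.57% of all genes lower by it, and none was higher by it, compared with 1.89%. The median of the 10 genes was -0.28, and that of all genes -0.22. The deposited annotation has 1 epithelial class, whose subtypes were not separated here, so lower levels within cells and another mix of subtypes cannot be told apart.

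High mitochondrial shares moved with these epithelial values. In cells under 25%, the filter the study states, the median of the 10 genes was -0.12 and that of all genes -0.09. Fos was then at -0.42, Atf3 at -0.40 and Fosb at -0.36. Under a stricter filter (500 expressed mRNAs or more, mitochondrial share below 10%), Fos (-0.43) and Atf3 (-0.46) stayed lower while Dusp1 (0.01) and Nr4a1 (0.02) were level. From summed UMIs, Jun (0.07) and Ier2 (0.12) turned higher. After thinning of each cell to 1000 UMIs, 49.7% and 40.2% of epithelial cells had a Fos UMI, and unthinned 86.4% and 82.1%.

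In T cells, 9 of 10 genes were below 0, compared with 59.9% of all genes, and 2 were lower by the fold, compared with 12.8%, and none higher, compared with 2.90%. Fos had 5.88 and 3.81 (-0.63, -0.68 to -0.57) and Atf3 3.29 and 2.19 (-0.59). Egr1, with 2.99 and 2.12, was just short of the fold. These 3 genes have lower levels in T cells than in epithelial cells, as have Fosb (-0.37), Ier2 (-0.25) and Jun (-0.18). The summed epithelial markers were also lower in T cells of the Mye_KO library, 20.9 and 11.5. The part of this background in the ratios was tested only by subtraction, which left Fos at -0.46, Egr1 at -0.13 and the median of the 9 genes with a ratio at -0.03. The genes with a higher level in T cells than in epithelial cells were closer to 0. Junb had 17.01 and 15.9 (-0.10), Jund 8.61 and 8.55 (-0.01) and Dusp1 4.31 and 4.18 (-0.04), while Nr4a1 was higher, with 2.77 and 2.97 (0.10, 0.03 to 0.17). After thinning, a Fos UMI was found in 40.3% and 27.2% of T cells, although unthinned shares were 76.8% and 81.8% with the deeper Mye_KO library ahead. T cells of each library were also split at their median depth. Fos (-0.34 and -0.22), Atf3 (-0.17 and -0.25) and Egr1 (-0.23 and -0.31) were lower in the deeper than in the shallower cells, while Jun was higher (0.13 and 0.17). The part of depth in the ratios was not tested.

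In macrophages, in which Cre is active, the 10 genes differed little between the libraries in their means over all cells. None passed the fold, compared with 5.95% of all genes lower and 2.65% higher by it, and 7 were below 0, compared with 58.9%. Fos was lower, with 7.83 and 6.64 (-0.24, -0.28 to -0.20). Fosb was higher, with 4.70 and 4.99 (0.09, 0.04 to 0.14), and so was Jund, with 6.17 and 6.73 (0.12, 0.08 to 0.17). Fos and Fosb, the genes with a seed match, thus had ratios on opposite sides of 0. The median was -0.05, 0.15 from summed UMIs and 0.03 after thinning, so its direction depended on the processing. Macrophages of each library were also split at their own median depth. In the F/F library the summed level of the 10 genes was 58.1 in the shallower and 56.7 in the deeper cells. In the Mye_KO library it was 46.8 in the shallower and 64.6 in the deeper cells. How depth bears on the macrophage ratios was not tested. The epithelial markers stood closer together in macrophages than elsewhere among the large groups, with 15.7 and 12.02.

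In neutrophils, also myeloid, the genes moved apart. Subtypes of neutrophils and of macrophages were not separated here, so other levels within cells and another mix of subtypes cannot be told apart. Dusp1 had 9.93 and 11.9 (0.26, 0.20 to 0.32), Junb 12.7 and 14.2 (0.16, 0.11 to 0.22) and Nr4a1 1.70 and 2.10 (0.30, 0.15 to 0.45). Fosb was lower, with 3.56 and 2.81 (-0.34, -0.45 to -0.23), and Fos had 7.02 and 5.84 (-0.27). None passed the fold, compared with 18.8% of all genes lower and 8.02% higher, and 6 were below 0, compared with 62.6%. The ratios of Dusp1, Junb and Nr4a1 were above 0 under each alternative that gave them a value, with Dusp1 between 0.24 and 0.41. With the epithelial background subtracted, Fos (0.04) and Fosb (0.01) were level and Dusp1 was at 0.34. A Dusp1 UMI was found in 52.2% and 58.5% of neutrophils after thinning, compared with 26.3% and 23.0% of epithelial cells. Of the 10 genes, 5 had an interval below 0 in one and above 0 in another of epithelial cells, T cells, macrophages and neutrophils. This compares with 24.2% of 7194 genes, many with fewer UMIs and wider intervals. For this comparison the intervals came from unweighted UMI sums and are narrower than those printed. All 5 genes were below 0 in epithelial cells, where 87.7% of all genes were.

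Among all genes, a larger share passed the fold in each of the other cell types than in epithelial cells or macrophages, in both directions. In B cells 3 genes were lower by the fold, Atf3 (2.98 and 1.47, -1.02), Junb (9.34 and 5.48, -0.77) and Egr1 (2.49 and 1.69, -0.56), compared with 34.3% of all genes, and none was higher, compared with 5.38%. In this cell type 8 genes were below 0, compared with 79.5%. Depth differed most in this cell type. Without mitochondrial and immunoglobulin genes in the total, the median of all genes in B cells moved from -0.34 to -0.05 and that of the 10 genes from -0.38 to -0.09. Atf3 (-0.72) and Junb (-0.54) then still passed the fold and Egr1 (-0.28) did not. Atf3 was within the range of the epithelial markers in the F/F library, at 31.0% of its epithelial level. With the epithelial background subtracted it had no ratio, so its value here cannot be told apart from this background. Junb held its direction with the epithelial background subtracted (-0.75). Egr1 was left with 0.481 and 0.633 (0.40). In the F/F library Egr1 stood at 38.5% of its epithelial level, where the highest marker also stood at 38.5%, so no direction can be read from this.

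Mast cells were the only cell type with a gene past the fold in each direction. Nr4a1 had 3.57 and 5.09 (0.51, 0.39 to 0.64), compared with 6.07% of all genes higher by the fold, and Fos had 6.48 and 4.33 (-0.58, -0.69 to -0.47), compared with 21.3% lower. Jun was higher too, with 14.4 and 17.4 (0.27, 0.21 to 0.34). These directions held with the epithelial background subtracted, at 0.69, -0.38 and 0.59. The genes were evenly split, with 5 below 0, compared with 63.3%.

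In fibroblasts Junb had 13.8 and 8.96 (-0.62, -0.88 to -0.36), compared with 34.3% of all genes lower by the fold and 24.4% higher, and this rested on 332 and 704 UMIs in 57 and 60 cells. From summed UMIs Junb was at -0.07, so it did not pass the fold there. In this cell type 8 genes were below 0, compared with 56.4%, and the median of the 10 genes was -0.22 but 0.30 from summed UMIs, so its direction turned with the weighting of cells. In erythroid cells, with 106 and 30 cells, Jund, Ier2 and Atf3 were lower by the fold, compared with 33.3%, none was higher, compared with 36.9%, and 7 were below 0, compared with 47.8%. Of these 3 genes only the interval of Jund, from -1.40 to -0.11, did not hold 0. Ier2 and Atf3 were within the range of the epithelial markers there in both libraries. Jund was within it in the Mye_KO library, at 58.4% of its epithelial level where the median marker stood at 62.1%, so that with the background subtracted no ratio remained. Dendritic cells, endothelial cells and basophils had no gene past the fold, compared with 10.7%, 32.2% and 36.5% of all genes lower and 8.48%, 17.6% and 24.9% higher by it. In them 8, 10 and 4 genes were below 0, compared with 49.6%, 60.8% and 56.8%. From summed UMIs the median of the 10 genes moved from -0.29 to -0.01 in endothelial cells and from 0.05 to -0.16 in basophils.

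The level of the genes is a share of all UMIs, mitochondrial ones included, so it is lower by construction in cells with many of them. In epithelial cells the summed level of the 10 genes was 75.5 and 65.4 in cells under 5% mitochondrial share, 76.7 and 68.8 at 5% to 10%, 75.9 and 65.0 at 10% to 25%, and 50.5 and 42.6 at 25% or more. With mitochondrial UMIs left out of the total, an alternative chosen after the values were seen, it was 77.6 and 67.8, 82.8 and 73.9, 90.9 and 78.98, and 82.8 and 72.7. The drop at 25% or more to below the level of cells under 5% was thus not found with this total, while the Mye_KO library stayed lower in each range, from -0.20 to -0.16. Fos was lower in the Mye_KO library in each of these 4 ranges, by -0.45, -0.39, -0.41 and -0.50, and by -0.44, -0.40, -0.39 and -0.44 with the smaller total. Dusp1 was not, with 3.58 and 4.003 (0.16) at 5% to 10%. Depth also differed between the libraries within these ranges. The Mye_KO library was shallower under 5% (medians of 7377 and 2293 UMIs per cell) and at 5% to 10% (7818 and 3378). It was deeper at 10% to 25% (5852.5 and 11748) and at 25% or more (2562 and 6713). The part of depth in these ratios was not tested, and no values of all genes are given for the ranges. In T cells, macrophages and neutrophils Fos was likewise lower in each range, from -0.15 in macrophages under 5% to -0.76 in the 30 and 90 macrophages at 25% or more. The summed level in macrophages was 57.1 and 59.4 (0.06) under 5%, but lower in the Mye_KO library in the other ranges, with 59.3 and 49.2 (-0.27), 59.9 and 53.97 (-0.15) and 43.7 and 30.3 (-0.53). In neutrophils it was 59.6 and 60.4 (0.02) under 5% and between -0.09 and -0.01 in the other ranges.

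**Figure D4:**
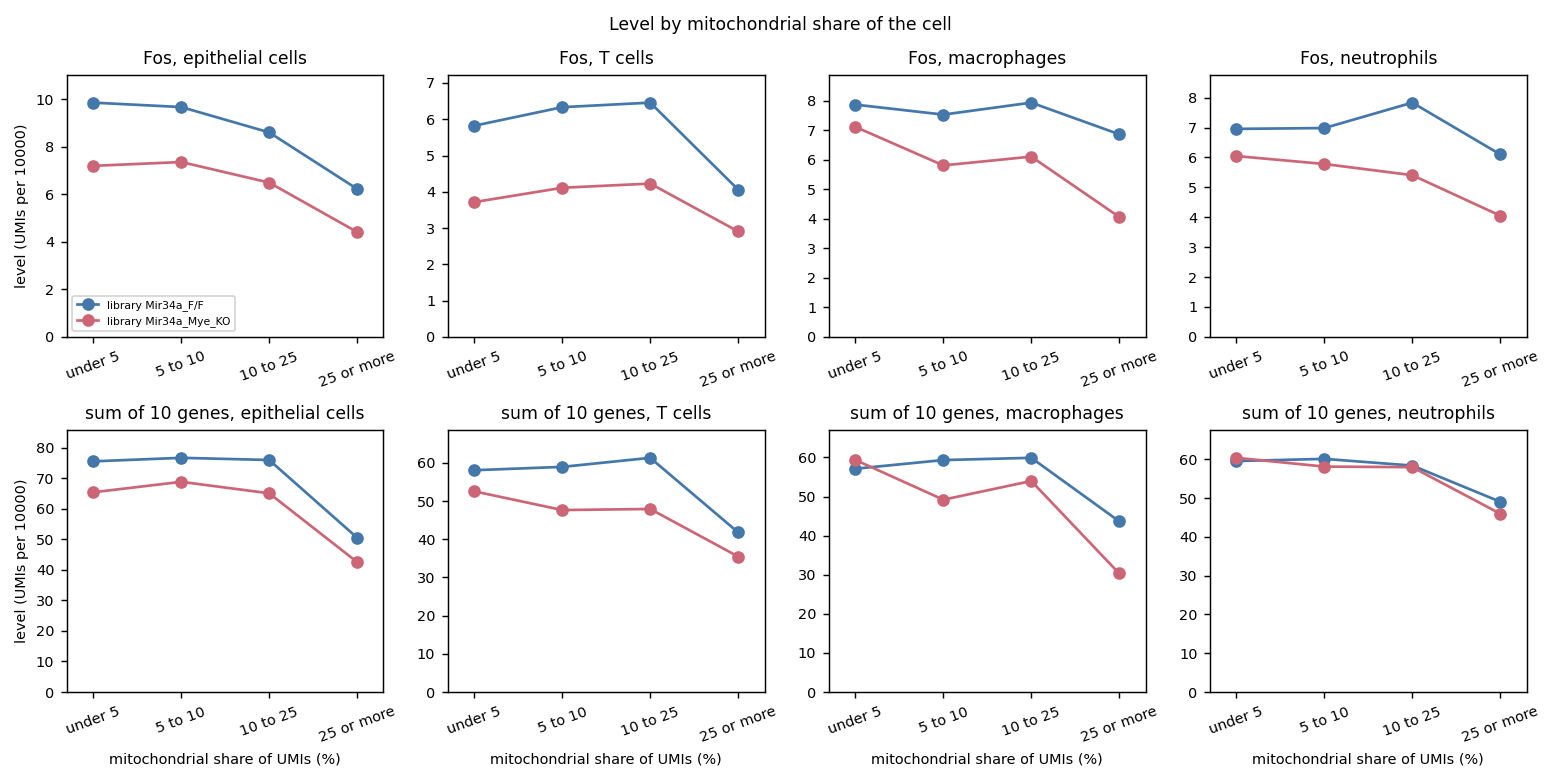
Level (UMIs per 10000, from 0) of Fos (upper row) and of the sum of the 10 genes (lower row) in cells grouped by mitochondrial share of UMIs, for 4 cell types and both libraries. Fos of the Mye_KO library lies below that of the F/F library in every range, and the summed level in epithelial cells is 50.5 and 42.6 at 25% or more, where mitochondrial UMIs take the largest part of the total.

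UMIs of several of these genes were counted in most single cells, background included. After thinning to 1000 UMIs, epithelial cells had a UMI for 4.12 and 3.55 of the 10 genes on average, T cells for 3.64 and 3.15, macrophages for 3.62 and 3.56 and neutrophils for 3.71 and 3.52. Of the 4 epithelial markers, 1.39 and 0.922 were counted per T cell in the same way, 1.11 and 0.904 per macrophage and 1.45 and 1.02 per neutrophil, compared with 2.53 and 2.14 per epithelial cell, so part of the UMIs outside epithelial cells cannot be told apart from this background. Epithelial cells without any UMI of the 10 genes were 2.91% and 5.29%. In cells that pass the stricter filter, the epithelial means were 4.30 and 4.11. Thinned UMIs of Jun varied more between epithelial cells than counting alone gives, with a variance over mean of 2.29 and 2.53, and those of Fos less so, with 1.57 and 1.35.

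The correlation of the genes from cell to cell was highest in epithelial cells. Over the 45 pairs of genes the median Pearson's r of the deposited log values was 0.309 and 0.312 in epithelial cells, 0.178 and 0.212 in macrophages, 0.120 and 0.0830 in neutrophils and 0.0880 and 0.144 in T cells. The closest pair in epithelial cells was Jun and Atf3 in both libraries (0.475 and 0.475). In macrophages it was Fos and Junb in the F/F library (0.320) and Junb and Dusp1 in the Mye_KO library (0.408), and in T cells Fos and Jun (0.179) and Junb and Jund (0.303). The summed level of the 10 genes also followed the mitochondrial share of the cell, with r of -0.235 and -0.383 in epithelial cells, -0.0279 and -0.128 in T cells, -0.00925 and -0.198 in macrophages and -0.0339 and -0.132 in neutrophils, and the part of this in the correlations was not tested. These values are descriptions across cells of 1 library, which share its depth and background, and weak ones in sparse counts carry no weight.

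**Figure D5:**
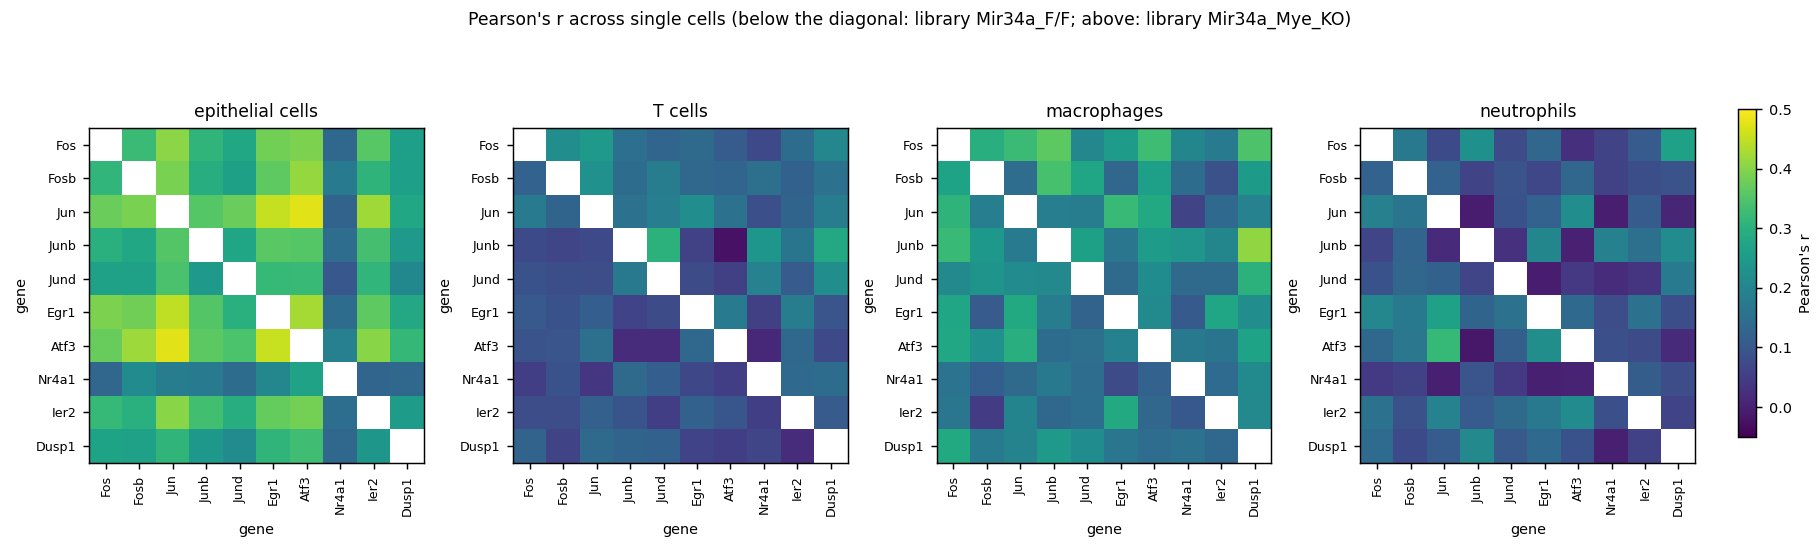
Pearson's r across single cells for each pair of the 10 genes in 4 cell types, with the F/F library below and the Mye_KO library above the diagonal and color from -0.05 to 0.5. The epithelial panel is the brightest, with Jun and Atf3 at 0.475 in both libraries, and the T cell and neutrophil panels are darkest.

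Heat shock genes are a list that warm dissociation also raises. Their summed level was 49.6 and 38.2 in epithelial cells, 59.0 and 50.8 in T cells, 55.8 and 51.9 in macrophages and 30.6 and 27.6 in neutrophils. In epithelial cells 12 of 12 were below 0, compared with 87.7% of all genes, with a median of -0.33, compared with -0.22. In T cells 9 of 12 were below 0 (median -0.26), in macrophages 9 (-0.09) and in neutrophils 8 (-0.31). All genes there had 59.9%, 58.9% and 62.6% below 0, with medians of -0.09, -0.06 and -0.15. The count in neutrophils was thus near the share of all genes. The summed level of the 10 genes in neutrophils was 59.3 and 59.1. Hspa8, a constitutive chaperone, had 11.6 and 8.16 (-0.51). Across single cells, r between the summed 10 genes and the heat shock genes was 0.192 and 0.280 in epithelial cells and 0.240 and 0.386 in macrophages. It was 0.231 and 0.326 in T cells and 0.311 and 0.2135 in neutrophils, where it was lower in the Mye_KO library. The part of dissociation in the ratios was not tested, and genotype and the handling of each library cannot be told apart.

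The other listed genes of the pathway set the 10 genes in context. Of 31 other immediate-early genes, 10 were higher and 6 lower by the fold in neutrophils, compared with 8.02% and 18.8% of all genes, with a median of 0.29, where all genes had -0.15. Nfkbiz, a nuclear regulator of NF-kB, had 7.36 and 13.3 (0.85), and Nfkbia, the NF-kB inhibitor, 9.39 and 12.6 (0.42). In epithelial cells 2 were higher and 2 lower, compared with 1.89% and 8.57%, and the median was -0.24, near that of all genes. The 2 higher ones were Nr4a3, a relative of Nr4a1, with 0.282 and 0.448 (0.67), and Ptgs2, a prostaglandin synthase, with 0.423 and 0.640 (0.60). The 2 lower ones were Btg1, an antiproliferative gene, with 6.83 and 4.52 (-0.60), and Ier3, a stress survival gene, with 2.81 and 1.92 (-0.55). In T cells 2 were higher and 6 lower, compared with 2.90% and 12.8%, and in macrophages 1 was higher and 1 lower, of 30 tested, compared with 2.65% and 5.95%.

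Of 12 other bZIP partners of AP-1 tested in neutrophils, 3 were below 0, compared with 62.6% of all genes, and the median was 0.27; Fosl2, a Fos family member, had 2.56 and 3.49 (0.45). In epithelial cells 10 of 12 were below 0, compared with 87.7%, with a median of -0.20, and Fosl2 had 1.75 and 1.45 (-0.27). Kinases and factors upstream were below 0 for 19 of 19 in epithelial cells, none by the fold, with a median of -0.21, which is close to all genes there (87.7% below 0, median -0.22). In neutrophils 2 of 18 were higher by the fold, compared with 8.02% of all genes, namely Braf (2.40 and 4.43, 0.88) and Map2k4 (2.76 and 4.31, 0.64), kinases on the way to ERK and JNK, and 1 was lower, compared with 18.8%. Of 7 other dual-specificity phosphatases in neutrophils, 2 were higher by the fold, namely Dusp16, which acts on JNK and p38, with 5.62 and 8.88 (0.66), and Dusp2, with 0.288 and 0.465 (0.69). Dusp10, with 0.362 and 0.253 (-0.52), was lower. The shares of all genes there are the 8.02% and 18.8% given above, and the median of the 7 was -0.19, compared with -0.15.

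Over the 22 values of cell type and library, the genes outside the list whose pattern was closest to the mean of the 10 were Ctdspl (Pearson's r = 0.875), Nedd4 (0.873), Lgals9 (0.860), Pld1 (0.855) and Fer (0.819), of 7050 genes compared. The libraries share each cell type's identity, so these are 11 types seen in both libraries and not independent points. Across single epithelial cells, with r given as the mean of the 2 libraries, Fos was closest to Btg2 (0.344), Klf4 (0.304), Hbegf (0.300), Zfp36 (0.300) and Errfi1 (0.270), while among the 10 genes Jun (0.390), Egr1 (0.387) and Atf3 (0.381) were closest. In macrophages it was closest to Zfp36 (0.379) and Hspa1a (0.323). In T cells and neutrophils the closest genes, Zfp36 (0.186) and Btg2 (0.161), were weakly related.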

How the data were processed

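Gene expression was measured in 2 single-cell RNA libraries, 1 per genotype. As the study describes, reads were counted with Cell Ranger 7.2.0 on mm10, cells were filtered, doublets were removed with Scrublet, and types were annotated; this annotation was used as given. The authors deposited natural log values, made by scaling the UMIs of a cell to 10000 and adding 1 before the log. Exponentiation and division by the smallest value of the cell returned whole UMIs (largest deviation 1.5e-10). Median depth was 4787 and 7716 UMIs per cell; depth per cell type limits rare mRNAs most.

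Level, ratio, order of cell types and joint detection were computed with numpy 2.4.6 and pandas 2.3.3 under Python 3.11.15, intervals with scipy 1.17.1, and figures with matplotlib 3.10.9. Intervals at 95% are exact Poisson (levels), exact binomial split (ratios) and Clopper-Pearson (shares). For levels and ratios their width was taken from the effective number of UMIs, that is, UMI sums weighted as in the level, a choice made after seeing the data. The count of genes with intervals on opposite sides of 0 used unweighted UMI sums. Comparisons with all genes used those with a level of at least 0.1 in either library. Thinning drew 1000 UMIs per cell and left out 840 and 181 shallower cells. The epithelial background of a cell type was the median, over 4 markers, of their level there divided by their epithelial level; this share of each gene's epithelial level was subtracted. Levels and ratios without subtraction were tested on simulated data that varied between cells by counting alone. Real counts varied more, as given above for Jun, so the intervals were not tested for that spread.

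The 10 genes and all lists were chosen with earlier results of these data known. Named genes are the 10, the 4 with the highest mean level of each other list (others named as past the fold were chosen after their values were seen), and the 5 closest in pattern (in macrophages, T cells and neutrophils fewer are given, and one result is not reported here). The alternatives were summed UMIs, thinning, stricter cell filters, other totals, subtraction of the erythroid level or the epithelial background, a pseudocount of 1, another background floor and leaving out B and erythroid cells.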

Additional observations from a re-analysis of the deposited data

Results flagged for a closer look

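Of the 10 genes, 5 had library ratios with intervals on opposite sides of 0 in different cell types among epithelial cells, T cells, macrophages and neutrophils. This compares with 24.2% of 7194 genes, many of which have fewer UMIs and wider intervals. These intervals came from unweighted UMI sums. No test of the difference between cell types was possible with 1 library per genotype. Fosb stood at -0.47 in epithelial cells and 0.09 in macrophages. Junb stood at -0.26 in epithelial cells and 0.16 in neutrophils. Jund stood at -0.13 in epithelial cells and 0.12 in macrophages. Nr4a1 stood at -0.29 in epithelial cells and 0.30 in neutrophils. Dusp1 stood at -0.28 in epithelial cells and 0.26 in neutrophils. In epithelial cells 87.7% of all genes were below 0, with a median of -0.22. Relative to that median Fosb lay at -0.25, Junb at -0.04, Jund at 0.10, Nr4a1 at -0.07 and Dusp1 at -0.06. Relative to the medians of all genes there, Fosb lay at 0.15 and Jund at 0.18 in macrophages. Junb lay at 0.31, Nr4a1 at 0.45 and Dusp1 at 0.40 in neutrophils. Jund was thus above the median of all genes in both of its cell types. These differences were not tested. In epithelial cells of 500 expressed mRNAs or more and a mitochondrial share below 10%, Junb (-0.01), Jund (-0.01), Nr4a1 (0.02) and Dusp1 (0.01) were close to 0, whereas in neutrophils under the same filter Nr4a1 stood at 0.34 and Dusp1 at 0.29.

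A signal was also found outside the 10 genes. The primary transcript of Mir34a, which the labels call deleted in myeloid cells of one library, had 133 UMIs in macrophages of the F/F library and 462 in those of the Mye_KO library, with levels of 0.0723 and 0.111. Why it was counted there was not tested.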

How the results depend on the processing

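No paired analysis was possible because each genotype has 1 library, and for the same reason no replicate could be left out. The same cell type was highest for 7 to 9 of 10 genes under each alternative run. The counts of pairs past the fold depended on the processing, and so did the shares of all genes past it. These shares are given in parentheses, except for the stricter filter. The share of lower pairs was above that of all genes with a pseudocount of 1 and with the erythroid level subtracted. The share of higher pairs was above it with the erythroid level subtracted. The pseudocount of 1 shrinks the ratios of genes with levels below 1 most, and the 10 genes lay above 1. It therefore cannot decide how they relate to all genes. The 12 lower pairs (22.7%) became 20 from summed UMIs (23.1%), 7 without mitochondrial and immunoglobulin genes in the total (18.6%), 5 with a pseudocount of 1 (1.49%), 17 of 56 with the erythroid level subtracted (28.5%), 6 of 104 with the epithelial background subtracted (19.4%) and 6 of 90 without B and erythroid cells (20.5%). The 1 higher pair (12.6%) became 2 from summed UMIs (11.4%), 5 after thinning (16.2%) and 2 in cells under 25% (13.4%). It became 22 of 56 with the erythroid level subtracted (34.5%), 17 of 104 with the epithelial background subtracted (20.2%) and 0 with a pseudocount of 1 (1.22%). Under the stricter filter (500 expressed mRNAs or more, mitochondrial share below 10%) it became 4, a smaller share than that of all genes.

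The median of the 10 genes in epithelial cells, -0.28, was -0.32 from summed UMIs, -0.23 after thinning, -0.08 under the stricter filter, -0.12 in cells under 25%, -0.15 with the smaller total, -0.45 with the erythroid level subtracted and -0.22 with the pseudocount. In T cells, -0.22 became -0.20 (summed), -0.19 (stricter filter), -0.19 (smaller total), -0.16 (pseudocount) and -0.03 (epithelial background subtracted, 9 genes). In macrophages, -0.05 became 0.15 (summed), 0.03 (thinned), -0.02 (both filters and smaller total), -0.04 (pseudocount) and 0.00 (epithelial background subtracted). In neutrophils, -0.12 became -0.06 (summed), -0.15 (thinned), -0.08 (smaller total), -0.09 (pseudocount) and 0.33 (epithelial background subtracted). With the erythroid level subtracted, too few genes kept a positive level for a median in these 3 cell types.

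The difference in genes detected per epithelial cell, -0.58, was -0.87 after thinning to 2000 UMIs and -0.19 under the stricter filter; in macrophages, -0.06 was -0.21 and 0.00. Of 325 pairs of the other listed genes, 27 were lower by the fold and 20 higher, where all genes had 11.3% and 3.74% in the same 4 cell types. From summed UMIs 44 were lower and 30 higher, where all genes had 16.5% and 4.92%. Ier2 in erythroid cells turned from -0.61 to 0.24 (summed) and 0.52 (thinned). Egr1 in B cells went from -0.56 to 0.40 with the epithelial background subtracted. That ratio rests on 0.481 and 0.633, from which no direction can be read. Thinning moved the median of all genes most in erythroid cells, from 0.07 to 0.52, and in basophils, from -0.16 to 0.26. The cause of these changes was not tested.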
